A study of Drosophila melanogaster with 2 samples.

Results

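Small nucleolar RNA (snoRNA) genes and the genes that contain them were examined in an anti-GFP ChIP-seq experiment on the Drosophila melanogaster protein CG9948. All 269 genes of the Ensembl snoRNA class on the dm6 chromosomes were taken, out of 18164 annotated genes other than transposable elements. Every gene that contained a snoRNA gene whole, on the same strand, was taken as its host, which gave 95 hosts. A snoRNA gene was counted when a peak summit lay within 500 bp of its 5′ end, and a host when a summit lay within 500 bp of any of its transcription start sites (TSSs).

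The flies were a transgenic line that stably expressed CG9948, an uncharacterized protein, with GFP at its C terminus. Chromatin from whole pupae aged 24 h was sheared by sonication, so signal from all cell types was pooled, and no promoter or cell type that limits the transgene is given in the labels. There were 2 biological replicates in 1 group, numbered 1 and 3, and therefore no comparison between conditions. The 4 lists hold 7637 peaks in the IDR list (irreproducible discovery rate, a set the authors drew from the other lists) and 30000 each in the pooled, replicate 1 and replicate 3 lists. Signals are the authors' own enrichment values on a scale that is not stated. They are ranked within a list only, and the read depth behind them is unknown.

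SnoRNAs guide the chemical modification of other RNAs. Box C/D snoRNAs direct 2′-O-methylation, box H/ACA snoRNAs direct pseudouridylation, and scaRNAs do the same for spliceosomal RNAs in Cajal bodies. In flies most are cut out of introns spliced from a host transcript, so their synthesis starts at the promoter of the host, which often codes for a ribosomal protein or is a noncoding snoRNA host gene (Uhg).

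By their symbols, 77 members were box C/D guides, 106 box H/ACA guides, 16 scaRNAs and 70 others. The median lengths were 79.0 bases for C/D guides and 140 bases for H/ACA guides. A host was found for 247 snoRNA genes, 243 of which lay in an intron of a host transcript, 61 of them in a first intron. Of the 95 hosts, 28 were ribosomal protein genes by symbol, 56 were other protein-coding genes and 11 were noncoding, and 56 held a single snoRNA gene. The 11 noncoding hosts were 10 long noncoding genes and 1 pseudogene. Copies of a guide mostly sat together: of 37 families with 2 or more copies, 35 were in a shared host. The exceptions were Psi18S-525, with 11 copies in Arpc2 and Msp300, and Me18S-G1358, with copies in RpL15 and drn.

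The DNA under the summits is shown first for the 6 host promoters with the strongest IDR peaks that were also found in both replicate lists and whose sequence is given here. Each window runs from 50 bp before to 50 bp after the summit on the host strand, from the RefSeq release 6 genome (dm6). Capitals mark TATAAA or CACTG on either strand, where TTTATA and CAGTG are the reverse complements. The windows are chr3R:7473903-7474003 (minus strand) for CG1142, chrX:21054285-21054385 (minus) for Stt3A, chr3L:15136759-15136859 (minus) for CG12316, chr2L:5108091-5108191 (plus) for Msp300, chr3R:11409902-11410002 (plus) for Irbp and chr3R:9340580-9340680 (plus) for drn.
CG1142: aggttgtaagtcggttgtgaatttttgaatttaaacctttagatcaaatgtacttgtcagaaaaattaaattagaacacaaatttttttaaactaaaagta
Stt3A: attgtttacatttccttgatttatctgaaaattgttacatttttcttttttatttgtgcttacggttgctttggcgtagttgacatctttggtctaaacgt
CG12316: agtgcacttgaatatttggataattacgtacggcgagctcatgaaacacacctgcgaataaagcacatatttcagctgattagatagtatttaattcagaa
Msp300: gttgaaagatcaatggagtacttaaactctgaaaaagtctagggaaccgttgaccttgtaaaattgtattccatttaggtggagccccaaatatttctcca
Irbp: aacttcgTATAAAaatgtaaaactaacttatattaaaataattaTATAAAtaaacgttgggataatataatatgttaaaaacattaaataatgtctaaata
drn: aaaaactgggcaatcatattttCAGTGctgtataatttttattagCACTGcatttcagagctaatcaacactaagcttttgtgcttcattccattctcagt
Their A+T content ran from 62.4% at Msp300 to 85.1% at Irbp.

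A second set, chosen after its values were seen, shows Arpc2 (chr2L:20416872-20416972, plus), RpS5a (chrX:17148257-17148357, minus) and Sf3b3 (chr3L:833500-833600, minus), which hold most snoRNA genes among the hosts with a summit whose sequence is given here, and RpS20 (chr3R:20821994-20822094, plus), the ribosomal protein host with the strongest peak. Capitals mark the same motifs and, in the RpS5a window, a GAGAG match on the other strand.
Arpc2: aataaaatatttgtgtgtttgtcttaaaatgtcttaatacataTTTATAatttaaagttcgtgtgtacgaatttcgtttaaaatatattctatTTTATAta
RpS5a: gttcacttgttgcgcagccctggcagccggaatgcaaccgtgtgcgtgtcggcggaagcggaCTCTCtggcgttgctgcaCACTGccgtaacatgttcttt
Sf3b3: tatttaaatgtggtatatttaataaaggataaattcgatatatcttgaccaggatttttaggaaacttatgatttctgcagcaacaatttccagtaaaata
RpS20: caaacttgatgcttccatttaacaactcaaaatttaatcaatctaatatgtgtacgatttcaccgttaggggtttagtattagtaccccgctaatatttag
The Arpc2 window was 82.2% A+T and the RpS5a window 40.6%, the lowest of all 10 windows.

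Taken as a whole, host promoters carried summits more often than protein-coding or long noncoding genes at large. In the IDR list 42 of 95 hosts had a summit at a TSS (44.2%, 95% Wilson interval 34.6 to 54.2%), against 18.0% of all 13945 protein-coding genes and 11.0% of all 2467 long noncoding genes. Through these hosts, 129 of the 247 snoRNA genes with a host (52.2%, 46.0 to 58.4%) had a summit at a host promoter. The snoRNA genes of a host share its summit, so they are not independent of each other. In the replicate 1 list 45 hosts had a summit (47.4%, 37.6 to 57.3%), against 31.2% of protein-coding and 29.7% of long noncoding genes. In the replicate 3 list 74 hosts did (77.9%, 68.6 to 85.1%), against 45.8% and 32.7%. The pooled list gave 73 hosts (76.8%), against 41.8% and 32.7%. The share of all hosts was above both backgrounds in each list. The IDR and pooled lists rest on both replicates, so the lists are not independent of each other. Of the 11 noncoding hosts alone, 3 had an IDR summit (27.3%, 9.75 to 56.6%, which holds the 11.0% of long noncoding genes), and 2 had one in the replicate 1 list (18.2%, below the 29.7%).

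The margin over the background was smaller among strong peaks. Among the stronger peaks of the IDR list, those ranked up to 3818 by signal, 13 hosts had a summit (13.7%, 8.17 to 22.0%), against 10.2% of protein-coding genes, and that interval holds the background value. With the strongest peaks of replicate 3 alone, as many as in the IDR list, 40 hosts had one (42.1%, against 18.5% of protein-coding genes), and with those of replicate 1 alone 32 did (33.7%, against 16.1%). Gene structure also differed between hosts and other genes. A divergent TSS of another gene within 1000 bp was present at 68.4% of hosts and 39.1% of protein-coding genes. Hosts with such a neighbour had an IDR summit in 29 of 65 cases (44.6%), against 29.9% of protein-coding genes with one, and hosts without it in 13 of 30 (43.3%), against 10.4%. Hosts with a single TSS had an IDR summit in 20 of 49 cases (40.8%), against 13.2% of protein-coding genes with 1 TSS. The hosts' share was above that of genes of like structure in each of these splits.

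Ribosomal protein hosts were the type with the highest share of summits in each full list, but not among the stronger 3818 IDR peaks. Of the 28, 20 had an IDR summit (71.4%, 52.9 to 84.7%), against 19 of 56 other protein-coding hosts (33.9%, 22.9 to 47.0%) and the 27.3% of noncoding hosts. Ribosomal protein genes that host no snoRNA had one in 22 of 57 cases (38.6%, 27.1 to 51.6%), an interval that ends below the lower bound for ribosomal protein hosts. That gap was narrower in the replicate lists: 57.1% of ribosomal protein hosts and 42.1% of the other ribosomal protein genes had a summit in the replicate 1 list, and 89.3% and 84.2% in the replicate 3 list, with overlapping intervals. With the strongest replicate 1 peaks alone the share of ribosomal protein hosts was 39.3% (23.6 to 57.6%), against 22.8% (13.8 to 35.2%) of ribosomal protein genes with no snoRNA. With the strongest replicate 3 peaks alone these shares were 60.7% (42.4 to 76.4%) and 47.4% (35.0 to 60.1%). The intervals overlapped in both settings. Of the 20 peaks at ribosomal protein hosts only that of RpS20 was among the stronger 3818 IDR peaks, against 11 of 19 at other protein-coding hosts and 53.9% of all promoter peaks. Summits at ribosomal protein hosts were thus frequent and weak, with a median signal of 214 (range 155 to 371, n = 20), while other protein-coding hosts had a median of 406 (156 to 1853, n = 19) and all 2262 promoter peaks one of 333. Peaks at ribosomal protein genes with no snoRNA were as weak, with a median of 196 (n = 22) and 3 of 57 genes with a summit among the stronger 3818 IDR peaks.

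**Figure D1:**
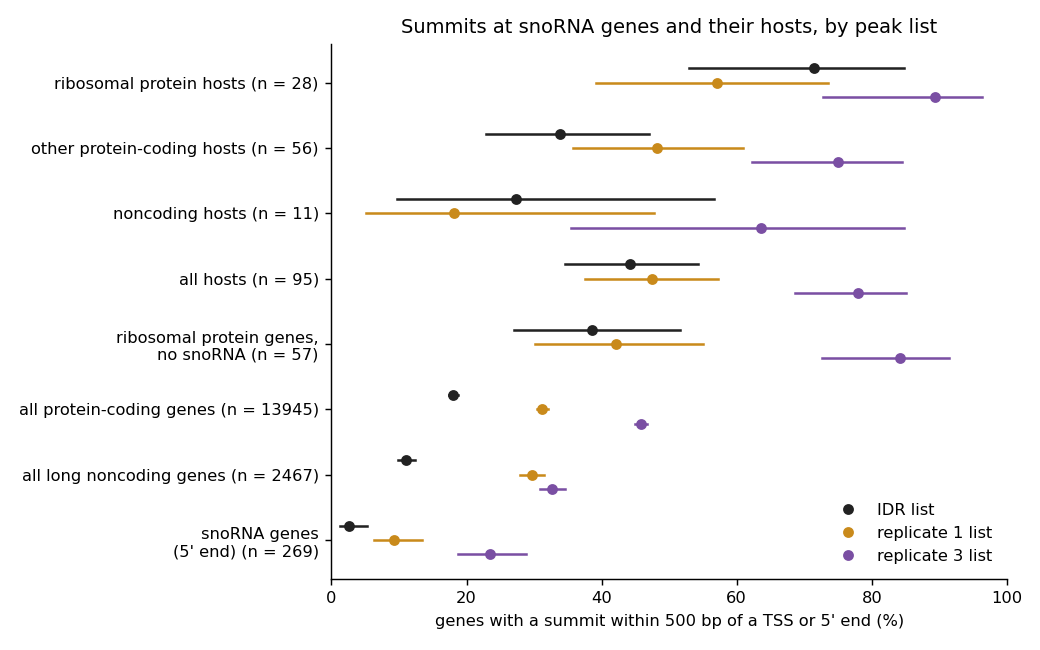
Share of genes (%, x axis) with a summit within 500 bp of a TSS, or of the 5′ end for snoRNA genes, by gene set (y axis) in the IDR, replicate 1 and replicate 3 lists. Points are shares and lines 95% Wilson intervals. Hosts lie above all protein-coding genes in each list, ribosomal protein hosts are the highest set in the IDR list at 71.4%, and snoRNA 5′ ends are the lowest at 2.60%.

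The strongest peaks at hosts were at protein-coding genes other than ribosomal protein genes. CG1142 (chr3R:7472458-7473781, minus strand), which holds 1 snoRNA gene, had a signal of 1853, the rank 131 of the IDR list, with a summit 172 bp upstream of its TSS. The overlapping peaks had a signal of 607 in replicate 1 and 1255 in replicate 3. Stt3A (chrX:21049885-21053937, minus), the catalytic subunit of oligosaccharyltransferase and host of 3, had 1580 (rank 221), with 462 in replicate 1 and 1119 in replicate 3. Its summit lay 398 bp upstream, nearer to the TSS of bves at 211 bp. The transcription factor gene lola (host of 4) had 1133 (rank 510), with 387 and 762 in replicates 1 and 3. CG12316 (chr3L:15131508-15136934, minus) had 920 (rank 806; 217 and 687), and its summit was 125 bp downstream of the TSS. Msp300 (chr2L:5100877-5207002, plus), a protein that links nuclei to the cytoskeleton, had 886 (rank 880; 347 and 551). These 5 hosts were the strongest in the IDR list, and each had a peak in both replicates.

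The next hosts in signal include genes of RNA metabolism. Irbp (chr3R:11410047-11412440, plus), a Ku subunit of DNA repair, had 722 with 143 in replicate 1 and 566 in replicate 3, and the TSS of mgr was nearer to the summit. The values were 697, 255 and 460 for drn (chr3R:9340216-9362994, plus). SC35 (chr2L:12431075-12434665, minus), an SR splicing factor, had 407, with 162 in replicate 1 and 150 in replicate 3, and the TSS of eRF3 was nearer. The box C/D core protein gene nop5 (chr2L:6916753-6918743, minus), itself a host of 1 snoRNA gene, had 406, with 130 and 254. RpS20 (chr3R:20822181-20823356, plus) had 371, with 145 and 230, the highest IDR signal of a ribosomal protein host. Arpc2 (chr2L:20417057-20423027, plus), a subunit of the Arp2/3 actin nucleator, had 319, with 93.4 and 225. The summit at Arpc2 was 135 bp upstream of its TSS and 4 bp from the TSS of CG10949. In all, 12 of the 42 hosts with an IDR summit had the TSS of another gene nearer to it, and 30 hosts (31.6%) remained when each summit was given to the nearest TSS only, against 13.3% of protein-coding genes.

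The other 30 hosts with an IDR summit had signals from 155 to 312. Among ribosomal protein genes these included, from the strongest, RpL14 (309), RpL28 (278), RpL27A (265), RpL23A (259), RpS3A (254), RpS4 (244), RpL30 (225), RpS6 (217), RpS12 (212), RpL13A (199), RpL15 (195), RpS7 (187), RpL11 (186), RpS5a (182), RpL17 (171), RpL22 (164), RpL10Ab (162) and RpL4 (155). The gene sta, which codes for ribosomal protein SA but is not counted as ribosomal by its symbol, had 196. The remaining protein-coding hosts were skd (293), a Mediator subunit, gcl (278), pAbp (272), the poly(A) binding protein, kra (261), the deubiquitinase gene Usp10 (219), Sf3b3 (160), a subunit of the U2 snRNP, and CG42564 (156). The noncoding hosts were Uhg4 (312), Uhg8 (275) and CR33222, which shares its peak (217) with RpS6, so 42 hosts had 41 distinct peaks. The TSS of CG5199 was nearer to the Uhg8 summit than that of Uhg8, and the TSS of bys was nearer to the shared summit than that of either host. RpL14 and RpL15 overlapped a peak in the replicate 1 list only, 11 hosts in the replicate 3 list only, and 29 (69.0%) in both.

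**Figure D2:**
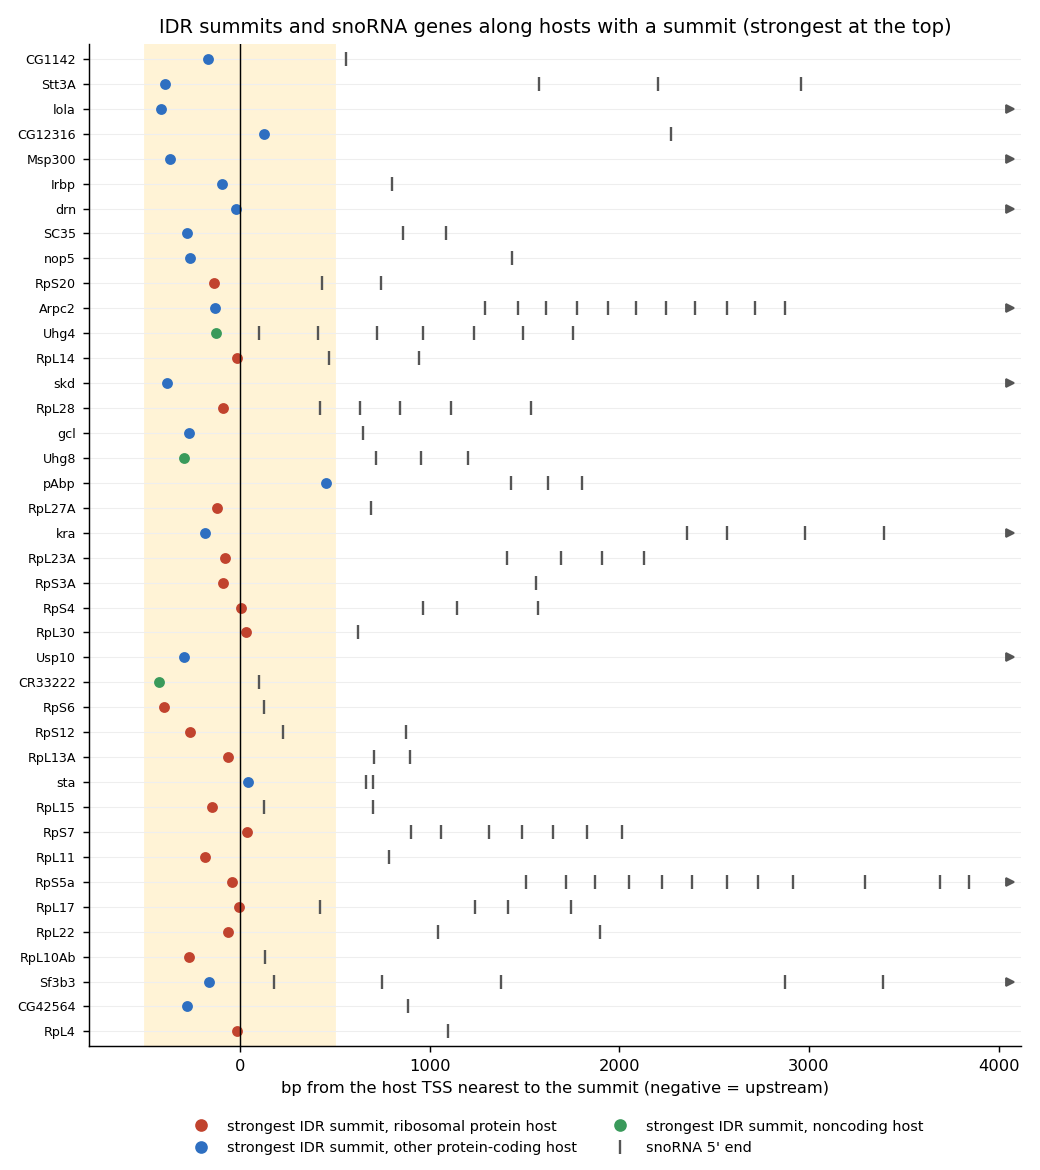
IDR summits and snoRNA genes along 40 of the 42 hosts with an IDR summit, in bp from the host TSS nearest to the strongest summit (x axis, negative upstream). Rows are hosts in order of signal, dots the strongest summit coloured by host type, vertical marks snoRNA 5′ ends and the shaded band the 500 bp window, and arrowheads stand for snoRNA genes beyond 4000 bp. The summits lie in the band because they were selected there, and most of them are upstream of the TSS. Most snoRNA genes, which hosts contain by definition, lie further downstream.

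**Figure D3:**
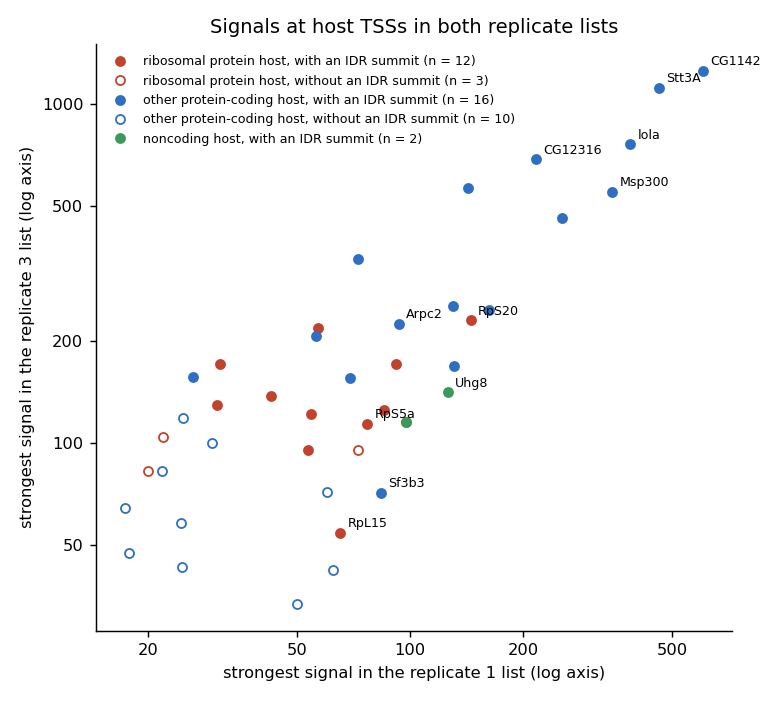
Strongest signal within 500 bp of a host TSS in the replicate 1 list (x axis) and the replicate 3 list (y axis), both on log axes on the authors' scale, for the 43 hosts with a summit in both lists. Colours give the host type, filled circles have an IDR summit and open circles do not, and the points of RpS6 and CR33222 coincide. CG1142 and Stt3A are highest in both lists, and the hosts without an IDR summit reach at most 72.6 in replicate 1 and 118 in replicate 3.

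The number of snoRNA genes a host holds did not order the IDR shares. An IDR summit was present at 17 of 56 hosts with 1 snoRNA gene (30.4%, 19.9 to 43.3%), at 18 of 24 with 2 to 4 (75.0%, 55.1 to 88.0%) and at 7 of 15 with 5 or more (46.7%, 24.8 to 69.9%). In the pooled list the shares were higher in hosts with more, at 66.1%, 91.7% and 93.3%. The 8 largest hosts held 97 snoRNA genes. Arpc2 held 17, among them all 7 copies of Psi18S-640, and RpS5a held 14, among them all 6 copies of Psi28S-1135. The IDR signal was 319 at Arpc2 and 182 at RpS5a, where the replicates had 76.9 and 114. Sf3b3, with 9, had 160 (83.5 and 71.2), and kra, the host of 8, had 261 with 195 in replicate 3 and no overlapping replicate 1 peak.

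The remaining 4 of the 8 had weaker peaks that did not enter the IDR list, with Hrb98DE taken by symbol order from 4 hosts tied at 7 snoRNA genes. Of those tied, Uhg4 (312) and RpS7 (187) had an IDR summit and Nop60B did not. Uhg1, with 16 snoRNA genes, had a pooled signal of 73.7 and 46.6 in replicate 3, with no summit in the replicate 1 list. The chromatin remodelling ATPase gene dom, with 15, had a pooled signal of 99.1 and no summit in either replicate list. Uhg5, with 11, had 132 pooled and 112 in replicate 3. Hrb98DE, an hnRNP gene with 7, had 96.5 pooled, with 62.4 in replicate 1 and 42.2 in replicate 3. There were 31 hosts with a pooled but no IDR summit, and most of them held a single snoRNA gene, as did 56 of all 95 hosts. There were 17 hosts with no summit in any list, among them Prp8, Act57B and Uhg7, and 30 with a summit in every list.

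By class of guide, 67 H/ACA genes had a host with an IDR summit (66.3% of those with a host, 56.7 to 74.8%), as did 32 of 74 C/D genes (43.2%, 32.6 to 54.6%), 4 of 14 scaRNA genes (28.6%, 11.7 to 54.6%) and 26 of 58 other snoRNA genes (44.8%, 32.7 to 57.5%). The H/ACA genes include the multicopy families of Arpc2, RpS5a and RpS7, each of which counts many times here through 1 summit. In the pooled list the shares were 100% for H/ACA, 90.5% for C/D and 42.9% for scaRNA genes. In the replicate 3 list H/ACA and C/D genes had like shares, 87.1% and 87.8%.

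The snoRNA genes themselves rarely had a summit at their own 5′ end. In the IDR list 7 of 269 did (2.60%, 1.27 to 5.27%), while 6.78% of the 980277 bases covered by the host genes lie within 500 bp of an IDR summit. In the pooled list 58 did (21.6%, against 22.0% of the bases), in the replicate 1 list 25 (9.29%, against 17.1%) and in the replicate 3 list 63 (23.4%, against 23.0%). The 22 snoRNA genes without a host are in these counts, though the bases are those of host genes only. For the 247 with a host, the share was 2.83% (1.38 to 5.73%) in the IDR list and 8.91% (5.96 to 13.1%) in replicate 1. Both lay below the share of bases. The snoRNA genes of a host often lie close together and are not independent, so the intervals here are too narrow. In the pooled list (19.0%, 14.6 to 24.4%) and the replicate 3 list (20.6%, 16.1 to 26.1%) the interval held the share of bases. Long hosts weigh more in the share of bases than short ones. No IDR summit lay inside a snoRNA gene. With a 1000 bp window the IDR count was 36, with a 250 bp window 1, and among the stronger 3818 peaks 1.

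All 7 were snoRNA genes at the start of their host, and in each the summit lay upstream of the snoRNA and also within 500 bp of the host TSS. The summit was 225 bp from the 5′ end of Psi28S-2949 (Uhg4, signal 312), 277 bp from Me18S-G1358c (RpL15, 195), 341 bp from Psi18S-1086 (Sf3b3, 160) and 403 bp from Psi18S-920 (RpL10Ab, 162). It was 431 bp from Psi28S-1232 (RpL17, 171), 486 bp from U49:66Da (RpL14, 309) and 495 bp from Me28S-A774b (RpS12, 212). When each summit was given to the nearest TSS only, none of the 7 snoRNA genes kept one. This follows from their positions, since the host TSS lay nearer to each of these summits than the snoRNA 5′ end. Just inside the window were U49:66Da at 486 bp and Me28S-A774b at 495 bp, and just outside Or-CD11a at 508 bp and Or-aca2 at 528 bp. For hosts the same limits fell at CR33222 (429 bp) and pAbp (453 bp) inside, and tou (591 bp) and CG3902 (627 bp) outside.

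In the IDR list, summits at the snoRNA 5′ end were seen only close to the host TSS. Of 35 snoRNA genes within 500 bp of a host TSS, 7 had an IDR summit at the 5′ end (20%, 10 to 35.9%), while 0 of 51 at 501 to 1000 bp did (upper bound 7.0%), 0 of 75 at 1001 to 2000 bp (4.87%) and 0 of 86 beyond (4.28%). The weaker peaks of the pooled list were also found further away, at the 5′ ends of 17 of 35, 8 of 51, 15 of 75 and 7 of 86 snoRNA genes in the same order. Of all 58 pooled cases, 39 had no such summit within 500 bp of a host TSS. Over the same bins the share whose host had an IDR summit was 65.7%, 62.7%, 53.3% and 39.5%. The first pattern follows in part from the windows, since a summit near the TSS can reach only snoRNA genes close to it. The nearest IDR summit was a median of 1565 bp from the 5′ end of snoRNA genes whose host had a summit (n = 129) and 21176 bp where the host had none (n = 118), beside a median of 1433 bp between 5′ end and host TSS (n = 247). Hosts were split by summits of the same IDR list, so the gap between these medians follows largely from the split.

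**Figure D4:**
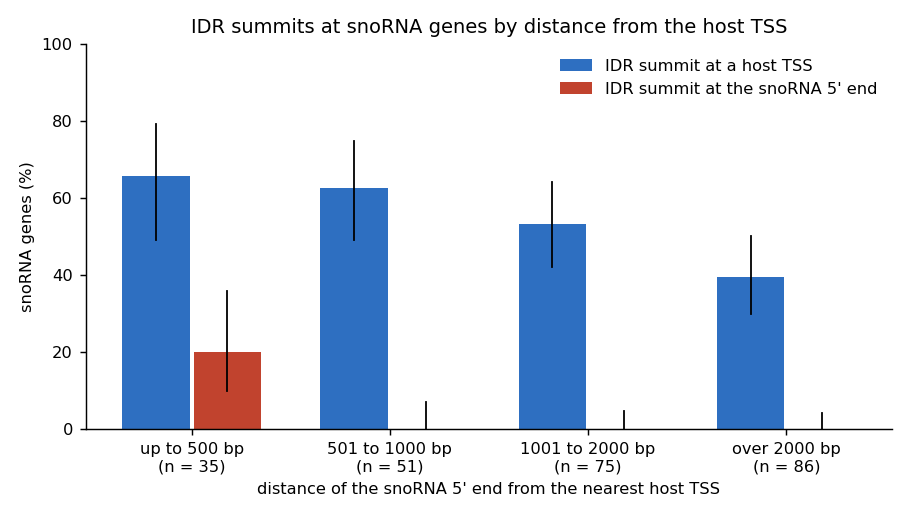
Share of snoRNA genes (%, y axis) with an IDR summit at a host TSS and at their own 5′ end, by distance of the 5′ end from the nearest host TSS (x axis). Bars start at 0 and lines are 95% Wilson intervals. Summits at the 5′ end occur only in the first bin (20%), while host summits are at 65.7% in the first bin and 39.5% in the last.

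Sequences of the snoRNA genes at these 5′ ends, given for 6 of the 7 and chosen after their values were seen, run 5′ to 3′ on the strand of the gene (RefSeq release 6, dm6). Capitals mark the sequence elements by which the classes are known: TGATGA (box C) and CTGA (box D), or the ANANNA hinge match nearest to the middle and the 3′ ACA. The genes lie at chr3L:27267383-27267450 (plus) for Me18S-G1358c, chr3L:13023580-13023652 (plus) for Me28S-A774b, chr3L:8601473-8601552 (plus) for U49:66Da, chr3L:833062-833209 (minus) for Psi18S-1086, chr3L:11822984-11823124 (plus) for Psi18S-920 and chrX:6743675-6743815 (minus) for Psi28S-1232.
Me18S-G1358c: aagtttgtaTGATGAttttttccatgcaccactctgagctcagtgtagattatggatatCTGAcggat
Me28S-A774b: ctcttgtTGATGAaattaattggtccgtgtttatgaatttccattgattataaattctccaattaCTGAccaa
U49:66Da: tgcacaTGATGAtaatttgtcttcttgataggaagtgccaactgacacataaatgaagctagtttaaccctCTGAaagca
Psi18S-1086: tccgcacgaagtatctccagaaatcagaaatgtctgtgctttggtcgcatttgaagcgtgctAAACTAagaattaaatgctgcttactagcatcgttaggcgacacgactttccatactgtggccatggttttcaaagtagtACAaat
Psi18S-920: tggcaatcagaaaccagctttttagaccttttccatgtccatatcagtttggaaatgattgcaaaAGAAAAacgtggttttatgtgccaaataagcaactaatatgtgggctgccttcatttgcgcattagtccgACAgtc
Psi28S-1232: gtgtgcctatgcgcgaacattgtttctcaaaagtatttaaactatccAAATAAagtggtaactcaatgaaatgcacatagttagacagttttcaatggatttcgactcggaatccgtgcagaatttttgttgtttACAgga
The boxes of the class were found in each of these genes, and U49:66Da, whose symbol gives no class here, held boxes C and D. ANANNA leaves several bases free, so a match was likely in any sequence of this length and does not bear on the class.

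The 22 snoRNA genes without a host lie in no gene of the same strand, and 0 of them had an IDR summit at the 5′ end (upper bound 14.9%). Weaker peaks were present at 11 in the pooled list (50%, 30.7 to 69.3%), at 3 in the replicate 1 list (13.6%) and at 12 in the replicate 3 list (54.5%, 34.7 to 73.1%). These shares stand against 32.7%, 29.7% and 32.7% of long noncoding genes, which were counted at any TSS rather than at a single 5′ end. Psi28S-1153 and its neighbouring snoRNA genes share their summits, so the pooled and replicate 3 intervals count the same summits more than once and are too narrow. The strongest was at snoRNA:185, with a pooled signal of 135 and 150 in replicate 3, at a summit 260 bp upstream in the pooled list. Psi28S-2622 was the only one with a summit in all 3 of those lists, with 113 pooled, 37.0 in replicate 1 and 92.7 in replicate 3. Or-CD14 had 113 pooled and 94.7 in replicate 3. These 3 had the highest pooled signals among snoRNA genes without a host.

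The remaining snoRNA genes without a host had lower values. Psi28S-1153 and 2 neighbouring snoRNA genes shared one pooled summit (67.1) and one replicate 3 summit (57.7). Pooled and replicate 3 signals were 52.4 and 46.7 at Or-aca4, 50.2 and 43.3 at Psi18S-301, 44.7 and 45.4 at Me18S-A1806, and 41.2 and 39.9 at Psi28S-3342. The scaRNA gene MeU1:95C-A24 had 40.4 pooled and 20 in replicate 1. Summits in a single list were found at U3:54Aa (replicate 3, 25.6), U3:9B (replicate 3, 27.6) and Me28S-C2789 (replicate 1, 24.3). U3 snoRNAs act in the cleavage of the ribosomal RNA precursor rather than as modification guides. None of the pooled signals reached 150, the lowest signal of a promoter peak in the IDR list. This follows largely from the lack of an IDR summit. Of the 7637 IDR peaks, 7506 hold the signal of a pooled peak, and the IDR and pooled ranks were equal at hosts with an IDR summit.

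Summits at hosts lay mostly upstream of the TSS, as they did at other promoters. The median position was -130 bp (range -429 to 453, n = 42), with 35 hosts upstream and 7 downstream, beside -147 bp and 81.9% upstream over all promoter summits, measured to the nearest protein-coding TSS. When each host summit was given to the nearest TSS only, the host median was -84.0 bp. Ribosomal protein hosts had a median of -71.5 bp (n = 20) and other protein-coding hosts one of -186 bp (n = 19).

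The base composition under the summits differed between host types. At other protein-coding hosts the A+T content within 50 bp of the summit was 71.1% ± 9.57 (SD, n = 19 peaks) and in flanks 200 bp to either side 58.3% ± 6.41. The difference was 12.9 ± 9.67 percentage points, positive at 18 of 19. At ribosomal protein hosts it was 59.7% ± 12.6 at the summit and 60.9% ± 6.49 in the flanks, a difference of -1.23 ± 13.2 points (n = 20), positive at 10. Ribosomal protein genes with no snoRNA gave 0.292 ± 8.86 points (n = 22), positive at 11, which is within the spread of ribosomal protein hosts. All promoter peaks gave 12.5 ± 11.8 points (n = 2262), positive at 86.3%.

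Ribosomal protein hosts also had weaker peaks and summits closer to the TSS. Over all promoter peaks ranked below 3818 with a summit within 100 bp of a protein-coding TSS, the difference was 5.01 ± 12.7 points (n = 267), and the part of rank and position in the value of ribosomal protein hosts was not tested. Single hosts ranged from -25.1 points at RpS5a, -21.1 at RpS7 and -18.2 at RpS4 to 24.3 at Arpc2 and 37.1 at Irbp. Over all 41 host peaks the mean was 5.18 ± 13.5, with 29 positive, and it was 12.8 for the stronger 3818 peaks and 0.893 when each summit was given to the nearest TSS only.

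**Figure D5:**
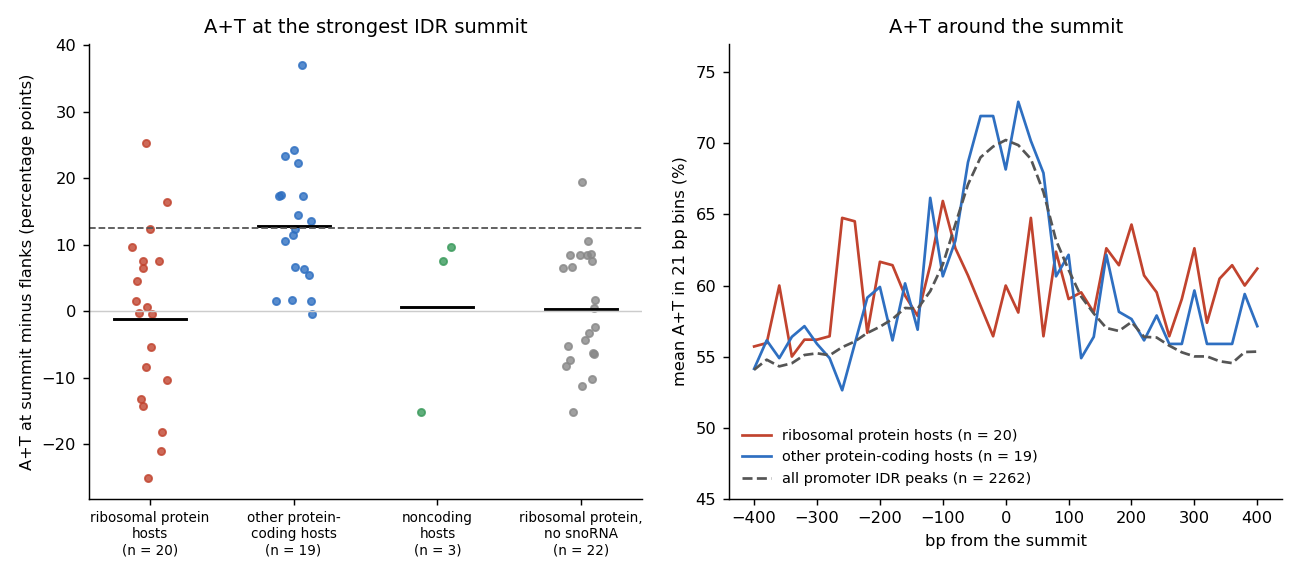
Left, A+T at the summit minus the flanks (percentage points, y axis) for each gene with an IDR summit, by gene set, with means as black bars and the mean of all promoter peaks (12.5) as a dashed line. Right, mean A+T (%, y axis) in 21 bp bins by distance from the summit in bp (x axis). Other protein-coding hosts and all promoter peaks rise towards the summit, and ribosomal protein hosts show no such rise.

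Known promoter motifs were counted on both strands as a description. Within 50 bp of the 41 host summits TATAAA was found at 6 (14.6%, against 28.0% of all promoter peaks), CACTG at 9 (22.0%, against 13.1%), GAGAG at 2 (4.88%, against 8.18%), TATCGATA at 1 (2.44%, against 0.752%), GGTCACAC at 1 (2.44%, against 0.398%) and CACGTG at 0 (against 0.575%). The Wilson intervals of the host shares for TATAAA (6.88 to 28.4%) and CACTG (12 to 36.7%) hold the values over all promoter peaks. From 250 bp before to 50 bp after any host TSS, TATCGATA, the DNA replication-related element, was present at 24.2% of hosts and 10.2% of protein-coding genes, and CACGTG at 16.8% and 5.30%. The other motifs were GAGAG at 41.1% and 36.3%, TATAAA at 57.9% and 51.2%, CACTG at 63.2% and 52.7%, and GGTCACAC at 14.7% and 8.71%. Hosts had a mean of 1.91 TSSs and protein-coding genes one of 1.41, so hosts had more sequence searched.

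Among the genes for the proteins that build snoRNPs, the IDR and replicate 1 shares had intervals that hold the protein-coding background, and the replicate 3 share lay above it. Of 14 genes found in the annotation, 4 had an IDR summit (28.6%, 11.7 to 54.6%, against 18.0%), 6 a replicate 1 summit (42.9%, 21.4 to 67.4%, against 31.2%) and 12 a replicate 3 summit (85.7%, 60.1 to 96.0%, against 45.8%). Among the C/D core proteins nop5 had 406, while the methyltransferase gene Fib, a host of 1, had a pooled signal of 124, Nop56 had 61.1 and hoip, another core protein gene, 51.2. Among the H/ACA core proteins NHP2 had an IDR signal of 499, with 161 in replicate 1 and 341 in replicate 3. The pseudouridine synthase gene Nop60B, a host of 7, had 63.2 pooled, Nop10 had 39.0 in replicate 3 only, and Gar1 had no summit in any list. NHP2 and nop5 were the core protein genes with an IDR summit.

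Among the assembly factors the AAA+ ATPase gene pont had the highest value, 1430, with 480 in replicate 1 and 944 in replicate 3. Its partner rept had 65.9 in the pooled list. The nucleolar chaperone gene Nopp140 had 242 in the IDR list and 168 in replicate 3. Nufip, a C/D assembly factor, had 129 pooled, WDR79, which acts in Cajal bodies, 63.3 pooled, and CG10341 36.2 in replicate 3 only.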

How the data were processed

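Peaks came from ChIP-seq of both biological replicates. The labels' description names an anti-GFP antibody, while their antibody field gives CG9948, and the description was followed. The 4 deposited peak lists are on dm6. Per the deposited readme texts, a replicate list rests on that replicate and a control, the pooled list on the reads of both, and the IDR list on all of these lists. The control was not analysed here. Which aligner and peak caller were run is not given in the sources used here. From the authors' lists come the signal of each peak, used only to rank and describe, the −log10 q-value, which was not used for calls, and the summit offset, capped at the last base of the peak. Of the 7637 IDR peaks, 7506 hold the coordinates and signal of a pooled peak. No reads are given, so depth is unknown.

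Gene and TSS positions came from Ensembl release 115, on the same chromosomes. All 269 snoRNA genes matched RefSeq by symbol with the same start and end. Hosts were protein-coding, long noncoding or pseudogene genes on the same strand. Families are symbols without their copy letter. Divergent neighbours have a TSS of the opposite strand within 1000 bp. Peaks were matched between lists when they overlapped by 50% of the shorter. Shares have 95% Wilson intervals, which cover counting error over genes only, and neighbouring genes can share a peak. With a single group no test between groups was made and no p-value is given. The count of summits was tested on simulated data with 200 planted genes.

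Named are all snoRNA genes and hosts with an IDR summit (the 12 strongest hosts in full), the 8 hosts with most snoRNA genes, snoRNA genes without a host that have a summit in any list, the snoRNP protein genes, and members next to the window limit. Shq1 was not matched and is named only. A few hosts that the rule would name are not reported here singly, though they stay in the counts. Hosts named for having no summit, and the sequences beyond the 6 strongest, were chosen after their values were seen. The members and lists were chosen with earlier results of these data known. Alternatives were other windows, lists, single replicates and host rules. Python 3.11.15, NumPy 2.4.6 and matplotlib 3.10.9 were used.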

Additional observations from a re-analysis of the deposited data

How the results depend on the processing

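The share of hosts was above that of protein-coding genes in each alternative where the background was counted, though with the stronger 3818 IDR peaks only by 13.7% to 10.2%. These peaks gave 13 hosts, 43 snoRNA genes through their hosts and 1 snoRNA 5′ end with a summit, and the A+T difference was 12.8 points. With all pooled peaks the counts were 73, 227 and 58, with 11 snoRNA genes without a host and 11 snoRNP protein genes. The number of snoRNA 5′ ends with a summit was 1 with a 250 bp window and 36 with a 1000 bp window. It was 0 when each summit was given to the nearest TSS only, because the host TSS lay nearer in each case. With that rule the A+T difference was 0.893 points.

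Leaving out a replicate, by taking the strongest peaks of the other, gave 4 to 8 snoRNA 5′ ends, 32 to 40 hosts, 93 to 127 snoRNA genes through their hosts, 0 to 1 snoRNA genes without a host, 3 to 4 snoRNP protein genes, a median position of -168 to -102 bp and an A+T difference of 4.18 to 8.93 points, with the lowest host counts without replicate 3. Requiring the snoRNA in an intron (41 of 92 hosts) or allowing either strand (47 of 109) left the share of hosts within the interval of the main count. The causes were not tested. No paired analysis was possible because there is only 1 group. The number of hosts and snoRNA genes, not read depth, sets the intervals. The lists give no read depth, so how far it limited weak peaks is unknown. The pooled and both replicate lists hold 30000 peaks each, and whether weaker peaks were left out of them is unknown here.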
